A study of Mus musculus with 20 samples.

Results

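The 9 genes described here mark the interneurons of the striatum: Chat, Slc5a7 and Slc18a3 for cholinergic cells, Pvalb for fast-spiking cells, Sst, Npy and Nos1 for low-threshold-spiking cells, and Gad1 and Gad2 for GABA synthesis. They were chosen by symbol, as the row of the count table that carries the symbol and has the highest mean count, and all 9 were found, at 9 of the 26475 loci with a symbol. RNA was sequenced from the whole striatum of 20 male mice of about 6 months, labelled Collaborative Cross, a mouse population bred from several inbred founders. The study asked how d-amphetamine, which releases dopamine, acts on this tissue in mice bred for overactivity in the cage and in their control line. The 4 groups of 5 mice, 1 library per mouse, were overactive mice given 25 mg/kg d-amphetamine, overactive mice given saline, control mice given 25 mg/kg d-amphetamine and control mice given saline. Tissue was taken 2 hours after treatment in all groups. The labels name no transgene or deletion in any group, so cell types are seen here only through their marker RNA.

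Interneurons are a small minority of striatal neurons, but they set the timing and gain of the projection neurons that carry the striatum's output. Cholinergic interneurons fire tonically and pause at salient events, fast-spiking cells give strong inhibition onto the cell body, and low-threshold-spiking cells release somatostatin, neuropeptide Y and nitric oxide along with GABA. Dopamine acts on several of these classes, which is why they are studied after psychostimulants. Gad1 and Gad2, which encode the enzymes that make GABA, are not specific to interneurons, since the projection neurons are GABAergic too.

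The 250 bases before the start of 5 of these genes are printed here, because 3 of them moved together between libraries and because the somatostatin promoter is the textbook example of a cyclic AMP response element. The sequences are from RefSeq (GRCm38.p6), run 5′ to 3′ on the gene's strand, and capitals mark TGACG or its complement CGTCA, the core of that element. The stretches are Sst (chr16:23890845-23891094, minus strand), Npy (chr6:49822460-49822709, plus strand), Chat (chr14:32465910-32466159, minus strand), Slc18a3 (chr14:32464851-32465100, minus strand) and Slc5a7 (chr17:54299035-54299284, minus strand).
Sst: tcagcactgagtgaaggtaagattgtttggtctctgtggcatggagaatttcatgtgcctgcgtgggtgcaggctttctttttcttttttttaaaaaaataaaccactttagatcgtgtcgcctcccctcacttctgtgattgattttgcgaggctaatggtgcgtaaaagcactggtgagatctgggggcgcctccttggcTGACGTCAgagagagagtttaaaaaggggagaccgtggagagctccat
Npy: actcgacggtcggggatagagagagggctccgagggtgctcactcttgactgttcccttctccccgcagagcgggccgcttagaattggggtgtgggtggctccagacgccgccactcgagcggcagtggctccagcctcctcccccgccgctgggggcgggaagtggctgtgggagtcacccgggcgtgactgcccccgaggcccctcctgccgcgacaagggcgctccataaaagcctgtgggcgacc
Chat: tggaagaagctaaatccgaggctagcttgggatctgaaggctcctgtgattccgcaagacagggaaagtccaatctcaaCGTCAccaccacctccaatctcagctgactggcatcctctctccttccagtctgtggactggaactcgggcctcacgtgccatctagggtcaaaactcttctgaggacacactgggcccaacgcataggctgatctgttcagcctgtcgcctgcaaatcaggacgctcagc
Slc18a3: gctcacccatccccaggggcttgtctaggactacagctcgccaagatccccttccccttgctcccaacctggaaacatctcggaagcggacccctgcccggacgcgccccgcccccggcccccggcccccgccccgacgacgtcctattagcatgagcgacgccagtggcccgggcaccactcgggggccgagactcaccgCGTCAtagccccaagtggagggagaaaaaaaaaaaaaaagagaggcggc
Slc5a7: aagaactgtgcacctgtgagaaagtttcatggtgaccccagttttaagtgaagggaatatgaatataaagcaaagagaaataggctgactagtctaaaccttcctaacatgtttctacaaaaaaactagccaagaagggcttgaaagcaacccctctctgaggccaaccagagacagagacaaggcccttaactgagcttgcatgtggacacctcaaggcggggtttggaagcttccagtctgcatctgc

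Promoter sequences were found for 9 of 9 genes, with 2 entries for Pvalb. The full element TGACGTCA was present only in the Sst promoter among the 9 genes, and 1.79% of 32851 mouse promoters of 300 bases, 250 before and 50 after the start, hold it on either strand. In Sst its overlapping cores begin 48 and 45 bases before the start, written as -48 and -45. The core TGACG, read on both strands, occurs in 20.8% of those promoters and in 5 of the 9 genes: Sst, Chat (-171), Slc18a3 (-49), Gad2 (-33) and Nos1 (-130). Neither sequence lies in these windows of Npy, Slc5a7, Gad1 or Pvalb. The matches describe letters in a window, not binding. Slc18a3, the vesicular acetylcholine transporter, lies inside the Chat gene on the same strand of chromosome 14, and its start is within the Chat locus, which spans 32407358 to 32483590.

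Scaled to the length of all annotated exons, somatostatin RNA was the most abundant of the 8 genes whose level could be set per length. On the RPKM scale, counts scaled to library size and to the length of the annotated exons, Sst averaged 203 ± 24.7 over the 20 libraries (SD), Gad2 108 ± 15.8, Npy 92.2 ± 19.9 and Gad1 91.4 ± 10.2. The lowest Sst library was at 150 RPKM, above the highest Gad2 library at 144 RPKM, so Sst stood apart on this scale from the gene next in order, whereas Gad2, Npy and Gad1 overlapped. The order depends on the length used, the union of annotated exons, which was 721 bases for Sst, 5876 for Gad2 and 7639 for Gad1. A transcript shorter than this union would give a higher level, and other lengths were not tested. Slc5a7 averaged 8.63 ± 1.72 RPKM, Nos1 7.96 ± 0.965, Chat 6.23 ± 1.26 and Slc18a3 4.32 ± 1.03. These 4 genes overlapped with their neighbours in that order, and all lay below the lowest Npy library at 52.3 RPKM. Pvalb has no such value, because the table counts it in 1 row with its neighbour Ift27, a gene of cilia, and the row cannot be split. All later levels are in CPM on TMM library sizes, a unit that serves to compare libraries and not genes.

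None of the 9 genes passed the test across all genes, either for amphetamine or between the lines. With edgeR's quasi-likelihood test, 0 of 9 had an adjusted p under 0.05 in any of 7 comparisons, and 0 of 9 had groups without overlap. In whole tissue, fewer cells of a type and less RNA per cell cannot be told apart. The background was as low for the drug. In the overactive line amphetamine against saline called 0% of 17206 genes (1382 had an unadjusted p under 0.05), in the control line 0% (957), over both lines 0% (1895), and the line difference in the response called 0% (510). DESeq2 called 40 genes for amphetamine in the overactive line, 0 in the control line, 161 over both lines and 0 for the difference, and limma-voom called 0 in each. The overactive line differed from the control line in 1.11% of genes after saline and in 0.453% after amphetamine, and in 7.02% over both treatments. Groups did not overlap in 0.761% of genes for amphetamine in the overactive line and in 1% in the control line. For the lines they did not overlap in 4.26% in saline and in 2.93% under amphetamine. Among the 9 genes the number with an unadjusted p under 0.05 was 2 for amphetamine in the overactive line (Pvalb and Gad2), 0 in the control line, 1 over both lines (Gad2) and 1 for the difference (Pvalb). For the lines 0 genes in saline, 1 gene after amphetamine (Pvalb) and 2 genes over both treatments (Sst and Npy) did so, where 17.3%, 12.9% and 25.6% of all genes did (2978, 2212 and 4405). The median standard error of the 9 log2 fold changes was 0.16 for a comparison of 2 groups and 0.11 over both lines or treatments.

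**Figure D1:**
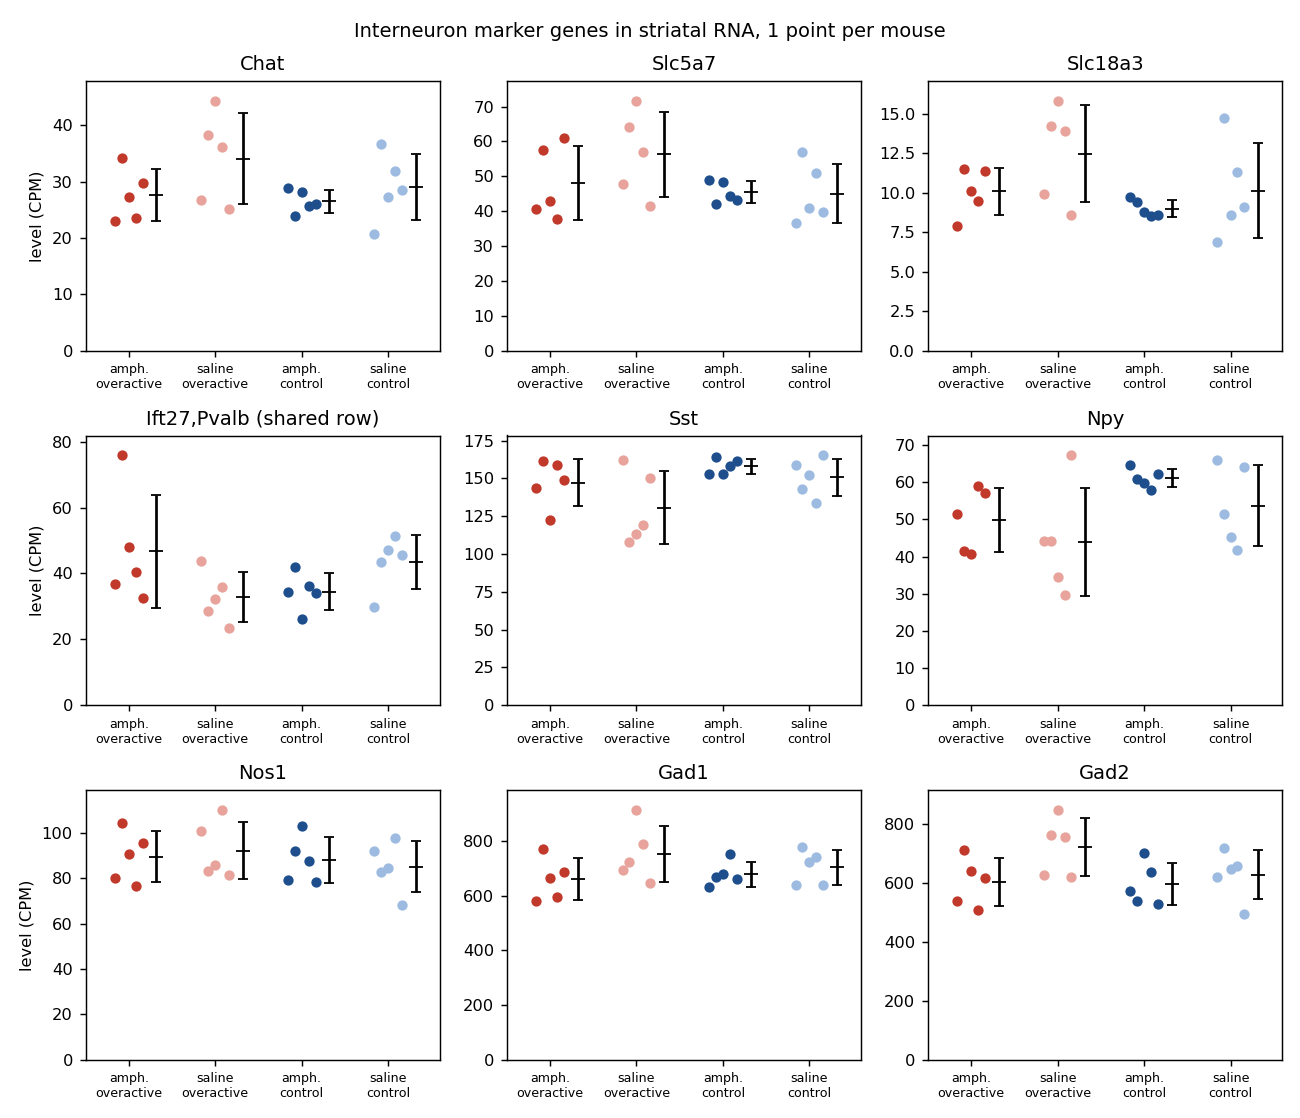
Each panel shows 1 gene, with its level in CPM on the vertical axis from 0 and the 4 groups on the horizontal axis; points are libraries and the bar beside them is the mean with SD (n = 5). Groups overlap in every panel, and the Ift27,Pvalb row has 1 amphetamine overactive library at 75.8 CPM.

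The cholinergic genes were highest on average in saline overactive mice, but by less than the spread of those mice. Chat (locus XLOC_010141, chromosome 14), the enzyme that makes acetylcholine, measured 23.1, 34.2, 27.3, 23.6 and 29.8 CPM in amphetamine overactive libraries 1 to 5, against 26.7, 38.2, 44.3, 36.1 and 25.1 CPM in saline overactive libraries. In the control line it measured 28.9, 23.9, 28.1, 25.6 and 26.0 CPM under amphetamine and 20.7, 36.7, 27.3, 31.8 and 28.6 CPM in saline. Saline overactive libraries 2, 3 and 4 were above every amphetamine overactive library, libraries 1 and 5 were not, and the amphetamine control range lay within the saline control range. The log2 fold change under amphetamine was -0.30 (SE 0.16, edgeR adjusted p = 0.645) in the overactive line and -0.13 (SE 0.16, adjusted p = 0.922) in the control line.

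Slc5a7 (XLOC_014577, chromosome 17, 54273383 to 54299034), the choline transporter that supplies Chat with substrate, had its 3 highest saline overactive values in the same libraries as Chat. It measured 40.6, 57.7, 42.8, 37.8 and 61.0 CPM in amphetamine overactive libraries 1 to 5, against 47.7, 64.2, 71.6, 57.0 and 41.4 CPM in saline overactive libraries. Control mice had 49, 42.1, 48.5, 44.3 and 43.1 CPM under amphetamine and 36.6, 57.0, 41.0, 51.0 and 39.8 CPM in saline. Amphetamine overactive libraries 2 and 5 were above saline overactive library 4, and every pair of groups overlapped. In saline the overactive line was at a log2 fold change of 0.32 relative to the control line (SE 0.16, edgeR adjusted p = 0.293), and under amphetamine at 0.08 (SE 0.16, adjusted p = 0.859).

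Slc18a3 (XLOC_010142), which loads acetylcholine into vesicles, had the fewest counts of the set, 261 to 685 per library. Its group means were 10.1 ± 1.51 CPM in amphetamine overactive, 12.5 ± 3.07 in saline overactive, 9 ± 0.509 in amphetamine control and 10.1 ± 3 in saline control mice (SD, n = 5). It ranged over 7.9 to 11.5 CPM in amphetamine overactive, 8.6 to 15.8 in saline overactive, 8.5 to 9.7 in amphetamine control and 6.9 to 14.7 in saline control mice, so all groups overlapped. The spread was 15% of the mean in amphetamine overactive mice and 24.6% in saline overactive mice, against 5.65% in amphetamine control mice and 29.7% in saline control mice. The fold changes under amphetamine were -0.31 on the log2 scale (SE 0.18) in the overactive line and -0.17 (SE 0.18) in the control line, with edgeR adjusted p of 0.708 and 0.917. Because Slc18a3 lies within the Chat locus, some reads of one gene may be counted in the other. The table holds another Chat row with 4 to 60 counts per library, too few to bear on the level of the row used.

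The Ift27,Pvalb row (XLOC_011687, chromosome 15, 78159332 to 78206351) had the largest fold changes of the set, in opposite directions in the lines. Pvalb encodes parvalbumin, the calcium buffer of fast-spiking interneurons. The row measured 36.7, 75.8, 48.1, 40.4 and 32.6 CPM in amphetamine overactive libraries 1 to 5, against 43.7, 28.6, 32.1, 35.9 and 23.5 CPM in saline overactive libraries. Control mice had 34.4, 41.9, 26.1, 36.1 and 34.1 CPM under amphetamine and 29.8, 43.4, 47.1, 51.4 and 45.7 CPM in saline. Amphetamine overactive library 2 was the highest of the 20, library 3 was also above all saline overactive libraries, and the other 3 lay within their range. In the control line 4 of 5 saline libraries were above all amphetamine libraries and library 1 was not.

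For this row the log2 fold change under amphetamine was 0.51 in the overactive line (SE 0.21, unadjusted p = 0.023, edgeR adjusted p = 0.512) and -0.33 in the control line (SE 0.21, adjusted p = 0.894). The difference between the lines was 0.84 (SE 0.29, unadjusted p = 0.00936), and its edgeR adjusted p over all genes was 1. Without amphetamine overactive library 2 that difference was 0.60 and the value in the overactive line 0.27. The 4 libraries highest in thalamic and septal markers were amphetamine overactive 2 and 3 and saline overactive 1 and 4, and without them the difference was 0.72 (SE 0.23, adjusted p = 0.543). How much of these values belongs to Pvalb and how much to Ift27 cannot be told apart in this table.

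Sst varied by 10.8% within groups (coefficient of variation), against 12.8% for Nos1 and 19.3% for Npy. Its locus is XLOC_012857 (chromosome 16, 23889580 to 23890844), and it encodes somatostatin, an inhibitory peptide. Sst measured 143.3, 161.7, 122.7, 159.1 and 149.1 CPM in amphetamine overactive libraries 1 to 5, against 162.1, 107.9, 113.2, 119.1 and 150.2 CPM in saline overactive libraries. Control mice had 153.1, 164.0, 153.1, 158.3 and 161.3 CPM under amphetamine and 158.9, 142.9, 152.2, 133.7 and 165.1 CPM in saline. Saline overactive libraries 2, 3 and 4, the ones high in the cholinergic genes, were the lowest 3 of all 20, and libraries 1 and 5 lay in the range of the control mice. Over both treatments the overactive line was at a log2 fold change of -0.15 (SE 0.07, unadjusted p = 0.0399, edgeR adjusted p = 0.174).

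Npy (XLOC_026630, chromosome 6, 49822728 to 49829507), the precursor of neuropeptide Y, had the smallest adjusted p of the 9 genes. It measured 51.4, 41.5, 40.6, 59.0 and 57.0 CPM in amphetamine overactive libraries 1 to 5, against 44.3, 44.1, 34.6, 29.6 and 67.2 CPM in saline overactive libraries. Control mice had 64.7, 60.9, 59.9, 58.0 and 62.2 CPM under amphetamine and 66.0, 51.4, 45.2, 41.9 and 64.2 CPM in saline. Of the amphetamine mice, 4 of 5 overactive libraries were below all control libraries and library 4 was not; in saline the lines overlapped widely, since overactive library 5 was the highest of the 20. Over both treatments the overactive line was at -0.29 on the log2 scale (SE 0.12, unadjusted p = 0.0295, edgeR adjusted p = 0.147). Without saline overactive library 5 the value was -0.39 (adjusted p = 0.0281), so that 1 library decided on which side of the threshold Npy fell.

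Nos1 (XLOC_024779, chromosome 5, 117413234 to 117958834), the neuronal nitric oxide synthase, had no fold change above 0.11 in size in the comparisons of 2 groups. It averaged 89.6 ± 11.4 CPM in amphetamine overactive, 92.3 ± 12.6 in saline overactive, 88.1 ± 10.2 in amphetamine control and 85.2 ± 11.2 in saline control mice (SD, n = 5). Its log2 fold changes ran from -0.04 to 0.11 over the comparisons of 2 groups, with SE of 0.11 each. The span given for this locus also covers Ksr2, which has rows of its own.

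The GABA synthesis genes were also highest on average in saline overactive mice, without passing the test. Gad1 (XLOC_017581, chromosome 2, 70489939 to 70602012) measured 580.5, 771.4, 663.5, 594.1 and 686.4 CPM in amphetamine overactive libraries 1 to 5, against 694.3, 720.8, 912.8, 786.9 and 645.3 CPM in saline overactive libraries. In the control line it ranged from 630.1 to 752.7 CPM under amphetamine and from 637.2 to 778.7 CPM in saline. Saline overactive libraries 3 and 4 were the highest of the 20 and the other libraries overlapped, with a log2 fold change under amphetamine of -0.19 in the overactive line (SE 0.09, edgeR adjusted p = 0.62) and -0.05 in the control line (SE 0.09, adjusted p = 0.951).

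Gad2 (XLOC_017302, chromosome 2, 22622326 to 22694100) measured 539.1, 713.1, 639.4, 508.4 and 617.2 CPM in amphetamine overactive libraries, against 625.2, 761.4, 847.4, 756.0 and 619.8 CPM in saline overactive libraries. In the control line it ranged from 528.9 to 700.9 CPM under amphetamine and from 496.0 to 718.7 CPM in saline. Saline overactive libraries 2, 3 and 4 were the highest of the 20, and libraries 1 and 5 lay among the others. Its log2 fold change under amphetamine was -0.26 in the overactive line (SE 0.11, unadjusted p = 0.0337, edgeR adjusted p = 0.552) and -0.08 in the control line (SE 0.11, adjusted p = 0.943).

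**Figure D2:**
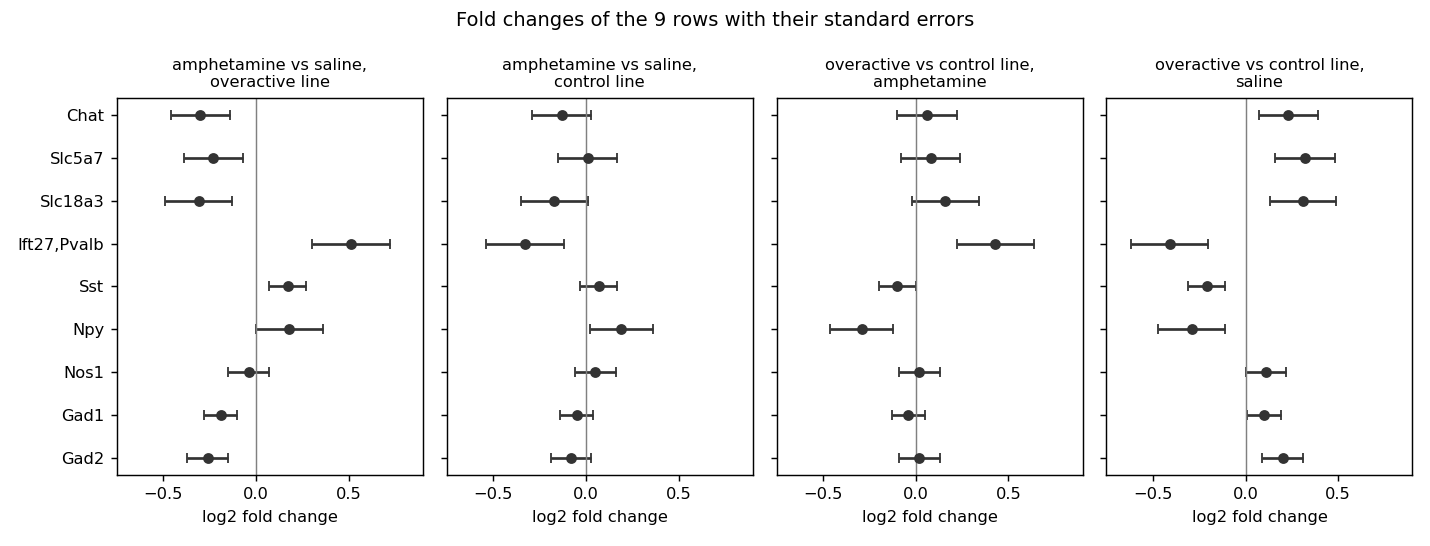
Points are log2 fold changes from the edgeR model and bars are 1 SE; each panel is a comparison of 2 groups of 5 mice, and the vertical line marks no change. The Ift27,Pvalb row lies at 0.51 for amphetamine in the overactive line and at -0.33 in the control line, and no value passed the adjusted threshold.

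Genes of the same interneuron class were next compared library by library, after the mean of each group was taken out of the log2 CPM. The 36 pairs of genes were tested by permutation within groups (100000 draws, two-sided) and adjusted by Benjamini-Hochberg over the 36, and 15 pairs passed at 0.05. The cholinergic genes tracked each other closely. Over 20 libraries Pearson's r was 0.921 for Chat and Slc5a7 and Spearman's rho was 0.923 (permutation p = 1e-05 for each, adjusted p = 0.00024 and 0.00018). It was 0.917 without the 2 libraries farthest from the median of Chat, 0.927 within the overactive line and 0.917 within the control line. For Chat and Slc18a3 r was 0.930 and rho 0.931 (permutation p = 2e-05 and 1e-05, adjusted p = 0.00024 and 0.00018), with 0.905 without the 2 farthest libraries, 0.957 within the overactive line and 0.905 within the control line. For Slc5a7 and Slc18a3, which lie on different chromosomes and share no reads, r was 0.881 and rho 0.898 (permutation p = 2e-05 for each, adjusted p = 0.00024 for each), with 0.880 without the 2 farthest libraries, 0.888 within the overactive line and 0.915 within the control line. The smallest p these draws can give is 1e-05.

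None of the 3 pairs of low-threshold-spiking genes passed after adjustment. Sst and Npy had an r of 0.574 (permutation p = 0.0643, adjusted p = 0.11) and a rho of 0.608 (p = 0.0249, adjusted p = 0.0559), with 0.607 without the 2 farthest libraries, 0.536 within the overactive line and 0.754 within the control line. Without the 4 libraries highest in thalamic and septal markers that r was 0.825. Sst and Nos1 had an r of -0.0703 and a rho of -0.146 (permutation p = 0.795 and 0.587, adjusted p = 0.795 and 0.622), with -0.196 without the 2 farthest libraries, 0.111 within the overactive line and -0.533 within the control line. For Npy and Nos1 r was -0.539 and rho -0.525 (permutation p = 0.0296 and 0.0363, adjusted p = 0.0654 for each), with -0.397 without the 2 farthest libraries, -0.613 within the overactive line and -0.452 within the control line.

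**Figure D3:**
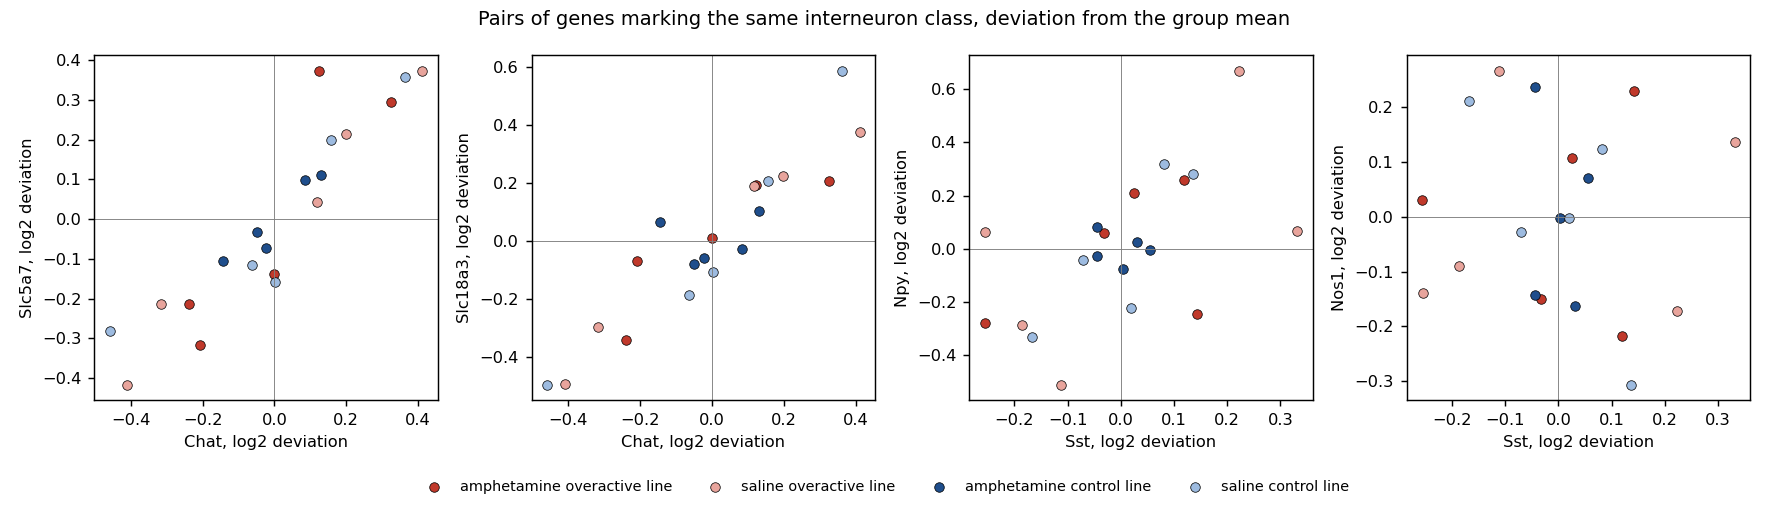
Each point is 1 of 20 libraries, coloured by group; both axes are deviations of log2 CPM from the group mean. Chat lies close to a line with Slc5a7 (r = 0.921) and with Slc18a3 (r = 0.930), while Sst spreads more widely against Npy (0.574) and shows no slope with Nos1 (-0.0703).

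Across classes, the cholinergic and GABA synthesis genes varied together, and Npy varied against the GABA synthesis genes. Gad1 and Gad2 had an r of 0.817 and a rho of 0.826 (permutation p = 0.00011 for each, adjusted p = 0.00099 for each), with 0.761 without the 2 farthest libraries, 0.922 within the overactive line and 0.684 within the control line. Chat and Gad1 had an r of 0.786 and a rho of 0.704 (permutation p = 0.00056 and 0.00445, adjusted p = 0.00403 and 0.0153), with 0.730 without the 2 farthest libraries, 0.917 within the overactive line and 0.525 within the control line. Npy and Gad1 had an r of -0.720 and a rho of -0.809 (permutation p = 0.0044 and 0.00073, adjusted p = 0.0158 and 0.00526), with -0.715 without the 2 farthest libraries, -0.708 within the overactive line and -0.752 within the control line. Npy and the Ift27,Pvalb row had an r of -0.592 and a rho of -0.584 (permutation p = 0.0122 and 0.0182, adjusted p = 0.0337 and 0.0452), with -0.537 without the 2 farthest libraries, -0.612 within the overactive line and -0.544 within the control line.

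These relations ran beside the levels of markers of neighbouring regions, which differed from library to library. Striatal projection neuron markers were present in every library (11 markers, summed 5920 to 8150 CPM in amphetamine overactive, 5340 to 8780 in saline overactive, 7250 to 8490 in amphetamine control and 6750 to 8420 in saline control mice). The 13 cortical and hippocampal excitatory neuron markers, none of them at 0 in any library, summed to 433 to 1330 CPM in amphetamine overactive and 328 to 542 in saline overactive mice, against 888 to 1180 in amphetamine control and 520 to 1150 in saline control mice. The 12 thalamic and septal markers, also none at 0, summed to 152 to 456 CPM in amphetamine overactive, 219 to 511 in saline overactive, 156 to 237 in amphetamine control and 148 to 266 in saline control mice. The 9 pallidal and basal forebrain markers, none at 0, summed to 85.1 to 174, 130 to 222, 71.5 to 132 and 82.1 to 141 CPM in the same order of groups. Cortex, pallidum and septum hold interneurons or cholinergic neurons of their own.

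A score per library, the mean log2 deviation of each marker list, was set against each gene with group means removed. Of 36 such relations, adjusted over the 36, 16 passed at 0.05. The cholinergic and GABA genes were lower where the cortical score was higher. For Chat r was -0.841 and rho -0.848 (permutation p = 9e-05 and 0.00022, adjusted p = 0.00162 and 0.00396), with -0.842 without the 2 farthest libraries, -0.874 within the overactive line and -0.783 within the control line. For Gad2 r was -0.805 and rho -0.789 (permutation p = 9e-05 and 0.00015, adjusted p = 0.00162 and 0.00396), with -0.758 without the 2 farthest libraries, -0.946 within the overactive line and -0.619 within the control line. Slc5a7, Gad1 and Slc18a3 had r of -0.813, -0.788 and -0.738 with the same score (permutation p = 0.00067, 0.00051 and 0.00201, adjusted p = 0.00482, 0.00459 and 0.0103). Their rho values were -0.809, -0.744 and -0.838 (permutation p = 0.00095, 0.00208 and 0.00061, adjusted p = 0.00684, 0.00936 and 0.00684), and r without the 2 farthest libraries was -0.881, -0.748 and -0.704. Within the overactive line r was -0.789, -0.822 and -0.752 for these genes, and within the control line -0.869, -0.718 and -0.735. With the pallidal and basal forebrain score r was positive. It was 0.637 for Chat, 0.605 for Slc5a7, 0.702 for Gad1 and 0.702 for Gad2 (permutation, adjusted p = 0.0324, 0.041, 0.015 and 0.00684). Slc18a3 had 0.578 and did not pass (adjusted p = 0.0717). By rank Gad1 and Gad2 passed (rho 0.680 and 0.692, adjusted p = 0.0174 and 0.00936), and Chat, Slc5a7 and Slc18a3 did not.

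Npy went the other way. Its r was 0.660 with the cortical score (rho 0.723, permutation p = 0.0067 and 0.00489, adjusted p = 0.0251 and 0.0176), with 0.732 without the 2 farthest libraries, 0.601 within the overactive line and 0.810 within the control line. With the pallidal score its r was -0.844 and rho -0.759 (permutation p = 0.00021 and 0.00091, adjusted p = 0.00252 and 0.00684), with -0.817 without the 2 farthest libraries, -0.861 within the overactive line and -0.888 within the control line. The Ift27,Pvalb row had an r of 0.661 and a rho of 0.654 with the thalamic and septal score (permutation p = 0.00894 and 0.00799, adjusted p = 0.0293 and 0.024), with 0.598 without the 2 farthest libraries. That relation was 0.858 within the overactive line and 0.0170 within the control line, so it did not hold in the control line. Nos1 had an r of 0.612 and a rho of 0.696 with the pallidal score (permutation p = 0.00982 and 0.00204, adjusted p = 0.0295 and 0.00936), with 0.541 without the 2 farthest libraries, 0.754 within the overactive line and 0.463 within the control line. Sst had an r of 0.533 and a rho of 0.638 with the cortical score (permutation p = 0.0367 and 0.0115, adjusted p = 0.0717 and 0.0316), so it passed by rank only, with 0.493 without the 2 farthest libraries, 0.432 within the overactive line and 0.921 within the control line. With the projection neuron score r was 0.0523 for Gad1 and 0.0633 for Gad2, and rho -0.0602 and -0.0346 (permutation p = 0.877 and 0.815 for r, 0.838 and 0.895 for rho, all adjusted p at least 0.862).

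**Figure D4:**
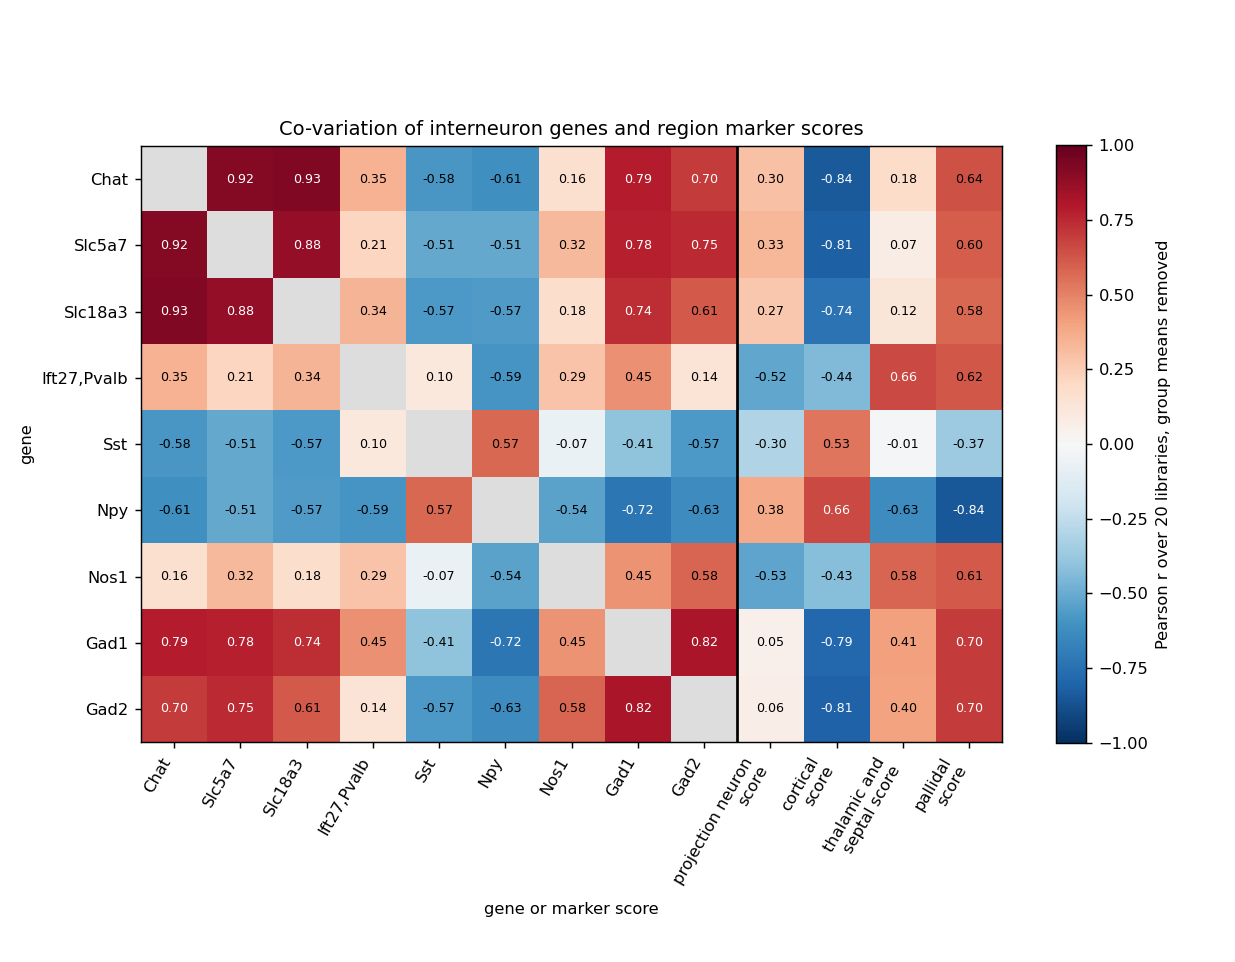
Cells give Pearson's r over 20 libraries with group means removed, between the 9 genes (left of the black line) and with 4 region marker scores (right); red is positive and blue negative. Chat, Slc5a7, Slc18a3, Gad1 and Gad2 form a red block and are blue with the cortical score, and Npy has the opposite colours.

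**Figure D5:**
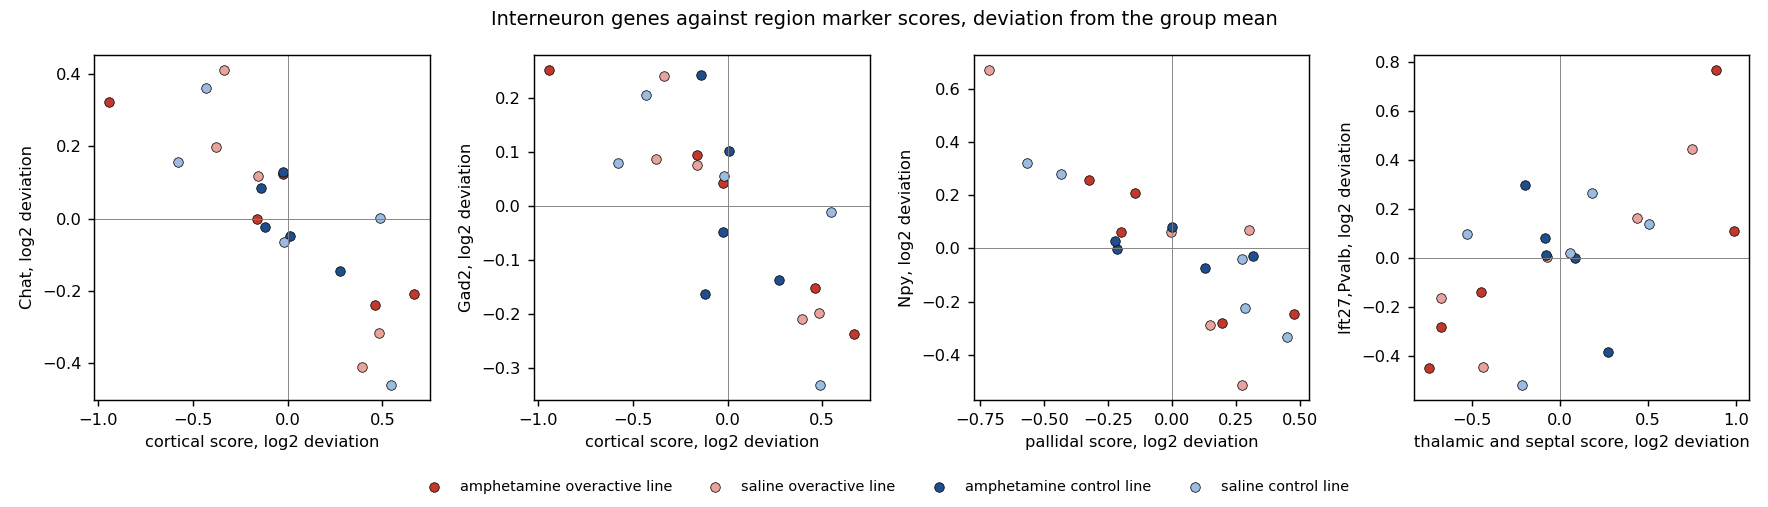
Each point is 1 of 20 libraries, coloured by group; the horizontal axis is the deviation of a region marker score and the vertical axis that of a gene, both in log2 units from the group mean. Chat (r = -0.841) and Gad2 (-0.805) fall with the cortical score, Npy falls with the pallidal score (-0.844), and the Ift27,Pvalb row rises with the thalamic and septal score (0.661).

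When the cortical, thalamic and septal, and pallidal scores were also taken out, the cholinergic relations stayed positive, at 0.627 for Chat and Slc5a7, 0.791 for Chat and Slc18a3 and 0.596 for Slc5a7 and Slc18a3. Sst and Npy were at 0.615, whereas Npy and Gad1 were at -0.334, Npy and the Ift27,Pvalb row at -0.122, and Gad1 and Gad2 at 0.447. With Gad1, Chat was at 0.380, Slc5a7 at 0.476 and Slc18a3 at 0.369. With Gad2, Chat was at -0.015, Slc5a7 at 0.284, Slc18a3 at -0.041 and Npy at -0.040. Many fold changes turned with the same scores as covariates of the edgeR model. For amphetamine in the overactive line 7 of 9 values changed sign, among them Chat at 0.15 (SE 0.11), Slc5a7 at 0.19 (SE 0.10) and Slc18a3 at 0.15 (SE 0.16), each with an adjusted p of 1. In the control line 5 of 9 changed sign. The Ift27,Pvalb row did not: its value was 0.69 in the overactive line (SE 0.20) and the difference between the lines 0.88 (SE 0.24), both with an adjusted p of 1. For Npy over both treatments the line difference was -0.08 (SE 0.09, adjusted p = 0.755) with the scores, against -0.29 without them. The part of regional makeup in these values was not tested beyond these fits.

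Other genes of the cholinergic system were followed from a list of 10. Of these 0 passed in either direction in any comparison by edgeR with all 20 libraries and no covariates. An unadjusted p under 0.05 was found for 3 of the 10 for amphetamine in the overactive line, where 8.03% of all genes had one. For amphetamine in the overactive line 9 of 10 had negative values, with a median log2 of -0.35 against -0.004 over all genes, and in the control line 8 of 10, with a median of -0.23. The list shares genes, Lhx8 and Ngfr among them, with the 9 pallidal and basal forebrain markers, whose medians were -0.33 and -0.24 in these comparisons, and their part in the values was not tested. For the line in saline 10 of 10 were positive, with a median of 0.29, beside medians of 0.77 for the thalamic and septal markers (10 of 12 positive), 0.19 for the pallidal markers (8 of 9 positive) and -1.11 for the cortical markers (12 of 13 negative). Isl1, a transcription factor of striatal cholinergic cells and of some projection neurons, measured 16.2 ± 2.86 CPM in amphetamine overactive mice and 22.6 ± 3.43 CPM in saline overactive mice (SD, n = 5). Its log2 difference there was -0.48 (SE 0.15, edgeR adjusted p = 0.388). Ecel1, a membrane peptidase, measured 62.0 ± 14.7 and 85.6 ± 19.9 CPM in the same groups (-0.47, SE 0.20, adjusted p = 0.539). Ngfr, a neurotrophin receptor of basal forebrain cholinergic neurons, had a value of 0.89 for the line under amphetamine (SE 0.47, adjusted p = 0.441). Gbx2, a developmental transcription factor also used in the thalamus, had 0.98 there (SE 0.44, adjusted p = 0.36). For the line over both treatments DESeq2 called Ecel1 (0.39, adjusted p = 0.048) and Gbx2 (0.94, adjusted p = 0.027). It called 2095 of 17206 genes there, and the edgeR adjusted p was 0.0934 for Ecel1 and 0.0687 for Gbx2.

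Of 13 tested genes for acetylcholine breakdown and receptors (14 listed), 0 passed in any comparison by edgeR with all 20 libraries and no covariates. Their median log2 for amphetamine was 0.11 in the overactive line and 0.04 in the control line. Chrm3, a muscarinic receptor gene, measured 33.7 ± 5.98 CPM in amphetamine overactive and 22.8 ± 3.78 CPM in saline overactive mice (SD, n = 5, log2 0.56, SE 0.13, edgeR adjusted p = 0.357). DESeq2 gave 0.57 with an adjusted p of 0.031, where it called 40 of 17206 genes. The cortical markers had a median of 1.30 in that comparison (13 of 13 positive). Without the 4 libraries highest in thalamic and septal markers, edgeR called Chrm3 there (0.85, SE 0.14, adjusted p = 0.0347). In that fit it was also called over both lines (0.51, SE 0.09, adjusted p = 0.031). With the region scores as covariates Chrm3 was not called. The part of the cortical markers was not tested beyond these fits. DESeq2 also called Chrm3 for amphetamine over both lines (0.37, adjusted p = 0.0258) and Chrm1 for the line over both treatments (-0.29, adjusted p = 0.0338). In these comparisons DESeq2 called 161 and 2095 of 17206 genes. The edgeR adjusted p there was 0.21 for Chrm3 and 0.0687 for Chrm1. Chrna4, a nicotinic receptor subunit, had 0.44 for amphetamine in the overactive line (SE 0.16, edgeR adjusted p = 0.449). The muscarinic receptor gene Chrm1 had -0.33 for the line in saline (SE 0.14, adjusted p = 0.218), and Chrm4, the main muscarinic receptor of direct pathway projection neurons, had -0.26 for the line under amphetamine (SE 0.13, adjusted p = 0.406). Butyrylcholinesterase, encoded by Bche, and the nicotinic subunit Chrnb3 had 0.26 (SE 0.14, adjusted p = 0.88) and 0.75 (SE 0.40, adjusted p = 0.88) for amphetamine in the control line.

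The 15 genes of fast-spiking and other cells born in the medial ganglionic eminence, the embryonic source of these interneurons, also gave 0 calls by edgeR. This count is for the fit of all 20 libraries without covariates. For the line difference in the response to the drug, 12 of 15 were positive, with a median log2 of 0.10 against 0.004 over all genes. In the same comparison 13 of 13 cortical markers were positive (median 0.84), 6 of 6 endothelial and mural markers were positive (0.27) and 11 of 11 projection neuron markers were negative (-0.19), and their part was not tested. Lhx6, the transcription factor of this lineage, measured 31.6 ± 4 CPM in amphetamine overactive and 35.4 ± 4.29 CPM in saline overactive mice, and 28.4 ± 3.32 CPM in amphetamine control and 33.9 ± 5.49 CPM in saline control mice (SD, n = 5). Its log2 values were -0.17 (SE 0.12, edgeR adjusted p = 0.779) and -0.25 (SE 0.12, adjusted p = 0.88), negative in both lines, unlike those of the Ift27,Pvalb row. The adhesion ligand gene Nxph1 had 0.18 for amphetamine in the control line (SE 0.08, adjusted p = 0.88). Pthlh, a peptide gene of striatal fast-spiking cells, had 0.46 for the line in saline (SE 0.16, adjusted p = 0.155). DESeq2 called it for the line over both treatments (0.34, adjusted p = 0.0495), where it called 2095 of 17206 genes. The edgeR adjusted p of Pthlh there was 0.0803. With 1 surrogate variable edgeR called it there (0.54, SE 0.10, adjusted p = 0.0119) and for the line in saline (0.66, SE 0.13, adjusted p = 0.0335). Over both treatments it was also called without the 4 libraries highest in thalamic and septal markers (0.49, SE 0.12, adjusted p = 0.0471). The same held without saline overactive library 1 (0.39, SE 0.11, adjusted p = 0.0476), and the other edgeR alternatives did not call it. Cox6a2 and the receptor gene Kit had 0.44 (SE 0.18, adjusted p = 0.321) and -0.17 (SE 0.07, adjusted p = 0.356) for the line under amphetamine.

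Among 14 tested genes of other interneuron peptides and classes (17 in the list), 1 passed by edgeR, in the line comparison over both treatments, where 7.02% of all genes did. This was Htr3a, a serotonin-gated channel of interneurons, at 2.78 ± 0.44 CPM in amphetamine overactive and 2.11 ± 0.224 in saline overactive mice, against 1.95 ± 0.253 in amphetamine control and 1.60 ± 0.528 in saline control mice (SD, n = 5). It was higher in the overactive line by 0.45 on the log2 scale (SE 0.13, edgeR adjusted p = 0.0384), a call kept in 13 of 30 alternatives, with values of 0.39 to 0.57. The peptide genes Cck and Vip, which cortical neurons also express, had 1.27 (SE 0.35, adjusted p = 0.371) and 1.19 (SE 0.39, adjusted p = 0.429) for amphetamine in the overactive line, where the cortical markers had a median of 1.30. The transcription factor gene Sp8 had 0.93 for the line in saline (SE 0.36, adjusted p = 0.19). Trh, a releasing hormone gene, had 1.64 for the line under amphetamine (SE 0.60, adjusted p = 0.258). DESeq2 called Trh for the line over both treatments (1.33, adjusted p = 0.0226), where it called 2095 of 17206 genes. The edgeR adjusted p of Trh there was 0.0568. Reln, which encodes a secreted glycoprotein, and Chodl, a marker of long-axoned Sst cells in cortex, had 0.25 (SE 0.12) and -0.24 (SE 0.12) for amphetamine in the control line, each with an adjusted p of 0.88.

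Of 11 genes for GABA storage, uptake and breakdown and of the DLX factors that specify GABA neurons, 1 passed, again only in the line comparison over both treatments. In that comparison 7.02% of all genes passed. Slc6a11, a GABA transporter found mainly in astrocytes, measured 236 ± 56.7 CPM in amphetamine overactive and 269 ± 89.7 in saline overactive mice, against 158 ± 24.8 in amphetamine control and 181 ± 43.0 in saline control mice (SD, n = 5). It was higher in the overactive line by 0.58 (SE 0.15, edgeR adjusted p = 0.0261), and 24 of 30 alternatives kept the call. It was 0.31 with the region scores as covariates (SE 0.08, adjusted p = 0.0831), 0.26 without the 4 libraries highest in thalamic and septal markers (SE 0.12, adjusted p = 0.305) and 0.18 with 1 surrogate variable (SE 0.08, adjusted p = 0.289). Leaving out saline control library 5, amphetamine overactive library 2 or saline overactive library 4 also took its adjusted p to 0.0502, 0.0527 and 0.0526. Of 5 tested astrocyte markers 2 also passed in this comparison, with a list median of 0.10, and the thalamic and septal markers had a median of 0.67; their part was not tested further. All 11 genes had negative values for amphetamine over both lines, with a median log2 of -0.11 against -0.006 over all genes and 0 past the test. Cortical markers had a median of 0.75 there (11 of 13 positive) and pallidal markers of -0.32 (8 of 9 negative), and their part was not tested. Slc32a1, which loads GABA into vesicles, had -0.12 in the overactive line (SE 0.07, adjusted p = 0.668) and -0.11 in the control line (SE 0.07, adjusted p = 0.889). Dlx1 and Dlx6 had -0.45 (SE 0.21, adjusted p = 0.603) and -0.17 (SE 0.07, adjusted p = 0.518) in the overactive line, and the GABA transporter gene Slc6a13 had -0.71 in the control line (SE 0.36, adjusted p = 0.88).

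Of 17 tested receptors and effectors of somatostatin, neuropeptide Y and nitric oxide (18 in the list), 1 passed, in the same line comparison. There 7.02% of all genes passed. Gucy1a2, a subunit of the guanylate cyclase that nitric oxide activates, measured 85.2 ± 11.1 CPM in amphetamine overactive and 81.4 ± 14.1 in saline overactive mice, against 119 ± 14.7 in amphetamine control and 109 ± 4.49 in saline control mice (SD, n = 5). It was lower in the overactive line, with a log2 fold change of -0.45 over both treatments (SE 0.08, edgeR adjusted p = 0.00204), and of -0.48 under amphetamine (SE 0.11, adjusted p = 0.0521) and -0.43 in saline (SE 0.11, adjusted p = 0.0598). The call was kept in 29 of 30 alternatives, with values of -0.50 to -0.36, and was lost with the region scores as covariates (-0.41, SE 0.10, adjusted p = 0.0643). Within single treatments DESeq2 called it (adjusted p = 0.00326 under amphetamine and 0.0101 in saline), as did limma-voom (adjusted p = 0.0327 and 0.0299). Another guanylate cyclase subunit gene, Gucy1a1, had -0.14 (SE 0.09, adjusted p = 0.75) and -0.12 (SE 0.09, adjusted p = 0.894) for amphetamine in the overactive and control lines. Pde5a, which breaks down cyclic GMP, had 0.56 for amphetamine in the overactive line (SE 0.15, adjusted p = 0.361), and the somatostatin receptor gene Sstr3 0.71 (SE 0.22, adjusted p = 0.391). Nos1ap, an adaptor of Nos1, had 0.17 in the control line (SE 0.10, adjusted p = 0.886). Npy5r, a neuropeptide Y receptor gene, had 0.22 for the line in saline (SE 0.11, adjusted p = 0.28), and the phosphodiesterase gene Pde1b -0.25 for the line under amphetamine (SE 0.11, adjusted p = 0.368).

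Finally, the genes whose library-to-library pattern was most like each marker were listed, by Pearson's r of log2 deviations over 20 libraries with a mean of at least 1 CPM (14375 to 14377 genes compared), as a description. Chat and Slc18a3, which share a locus, were left out of each other's lists. For Chat they were Slc5a7 (0.921), Rcan2 (0.813) and Zfp217 (0.792), and for Slc5a7 they were Chat (0.921), Slc18a3 (0.881) and Rcan2 (0.846). For Slc18a3 they were Slc5a7 (0.881), Fxr1 (0.828) and Fam184a (0.791). The Ift27,Pvalb row was nearest to Ptger3 (0.857), Selm (0.853) and Ccdc136 (0.843), Sst to Ppp1r8 (0.882), Trappc2l (0.868) and Atp5l (0.854), and Npy to Limd2 (0.936), Tnfaip8l1 (0.918) and Ephb6 (0.917). Nos1 was nearest to Cgn (0.895), 2810011L19Rik (0.875) and Col25a1 (0.854). Gad1 was nearest to Rcan2 (0.895), the vesicular GABA transporter gene Slc32a1 (0.842) and Heph (0.842), and Gad2 to Cacna2d2 (0.882) and Vat1l (0.879). Neither Sst nor Nos1 was among the 3 genes nearest to Npy.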

How the data were processed

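Per the labels, total RNA was extracted from whole striatum with a kit for lipid-rich tissue, and both ends of each fragment were read. The authors deposited 1 table of expected counts per locus, not scaled between libraries; 93.9% of values were whole within 0.01. The submitters' processing notes name the builds mm10 and GRCm38; the aligner, counting tool and strand setting are not given in the sources used here. Totals were 31393788 to 53773028 counts, which put 261 to 39525 counts behind each library value of the 9 genes. Of 37051 loci, 10576 without a symbol (0.65% of counts) were left out.

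Expected counts were rounded and filtered with filterByExpr (minimum count 10, total 15), which left 17206 loci and all 9 genes. One edgeR 4.0.16 quasi-likelihood model (R 4.3.3, TMM scaling, 1 mean per group, 20 libraries) gave 7 two-sided comparisons, with Benjamini-Hochberg adjustment over all loci and a threshold of 0.05. The comparisons within a line or treatment share groups and are not independent. CPM used TMM library sizes, log2 CPM a prior count of 2, and RPKM the union of exons in GENCODE M21. Correlations were run in Python 3.11.15 (pandas 2.3.3, numpy 2.4.6, scipy 1.17.1) and drawn with matplotlib 3.10.9. Scripts were tested on simulated data.

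Alternatives tried were 2 other scalings (upper quartile, RLE), a filter of 1 CPM in 5 libraries or none, DESeq2 1.42.0, limma-voom (limma 3.58.1), a fit restricted to the 2 groups of a comparison, a block for replicate number, region scores or 1 surrogate variable (sva 3.50.0) as covariates, and leaving out each library. Leaving out the 4 libraries highest in thalamic and septal markers, the relations without region scores, and the alternatives for companion genes were chosen after seeing the data. The 9 genes, the marker and companion lists, and the tests were chosen with earlier results of these data known. The genes named were the 9, companion genes that passed or had the 2 smallest p of their list in a comparison within a line or treatment, and the 3 genes most like each marker. A few genes that this rule names are not reported here. Libraries of a group differed by more than counting noise (mean chi-square per gene 17.14 to 49.53 over 40 pairs), so none was counted as a repeat.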

Additional observations from a re-analysis of the deposited data

How the results depend on the processing

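The count of the 9 genes past the threshold was 0 in each of the 7 comparisons under every alternative run, with 1 exception: for the line over both treatments it ranged from 0 to 1 when single libraries were left out, and the 1 was Npy (log2 -0.39, adjusted p = 0.0281) without saline overactive library 5. Of 63 fold changes of the 9 genes, 39 changed sign under at least 1 of 31 alternatives. The largest of these was 0.31 in size, so no direction is claimed. For amphetamine in the overactive line, Chat, Slc5a7, Slc18a3 and Gad2 each turned under 1 alternative only, the region scores as covariates. That fit turned 7 of 9 values there and 6 of 9 over both lines. Leaving out the 4 libraries highest in thalamic and septal markers turned 1 and 0. With the region scores removed, r turned to -0.015 for Chat and Gad2 and to -0.041 for Slc18a3 and Gad2; the cause was not tested. With the replicate number as a block 0 of 9 genes passed in each comparison, and the genes called for the line were 187 in saline and 51 under amphetamine, against 191 and 78. Same-numbered libraries correlated above 0.1 in 10 of 30 pairs (-0.232 to 0.247), and 6 of 20 libraries correlated best with their own number, so the numbers were not taken to pair mice. Over all genes, the line comparisons (saline, amphetamine, both) called 191, 78 and 1208 genes, against 764, 322 and 2095 with DESeq2, 297, 106 and 1363 with limma-voom, 58, 30 and 293 with 1 surrogate variable, 19, 50 and 143 with region scores, and 95, 17 and 323 without the 4 libraries highest in thalamic and septal markers, where amphetamine called 31 in the overactive line and 80 over both. Single libraries moved these counts too: in saline to 75 and 100 without saline overactive library 4 or 3, and to 67, 101, 115 and 124 without saline control library 5, 3, 2 or 1; under amphetamine to 23 without amphetamine overactive library 2, and to 35, 43 and 38 without amphetamine control library 3, 4 or 5. Over both treatments 770 genes were called without amphetamine overactive library 2, 783 without saline overactive library 4 and 770 without saline control library 5.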
